A study of Rattus norvegicus with 6 samples.

Results

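The cyclic AMP (cAMP) response of rat liver was examined through 8 of its regulators: Crem, Pde4b, Pde4d, Sik1, Ppargc1a, Rgs2, Gem and Irs2. Their members on the array were found by accession: every non-control probe whose RefSeq accession belongs to one of the 8 genes was taken, which gave 21 of 61657 probes and 8 of 15284 named genes. The liver RNA came from male rats of the outbred Sprague-Dawley stock, 9 weeks old, with 1 rat per array. One group was killed after CO2/O2 anaesthesia (n = 3) and the other after isoflurane anaesthesia (n = 3). Isoflurane is a volatile halogenated ether, and the mixture of carbon dioxide with oxygen is used to anaesthetise rodents before killing. All rats had received the vehicle corn oil at 5 mL/kg/day, for 3 days per the design text but for 9 weeks per the treatment protocol. They were fed freely; whether food was withheld before killing, and the hour of killing, are not given in the sources used here. Since every rat was anaesthetised, the data show the agents against each other and neither against an untreated level.

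In liver, glucagon and adrenaline act on receptors that raise cAMP through the G protein Gs and adenylyl cyclase. cAMP activates protein kinase A, which phosphorylates CREB and frees the CRTC coactivators to enter the nucleus. Genes with cAMP response elements in their promoters are then transcribed, among them genes of gluconeogenesis and several feedback inhibitors of the pathway itself. The 8 genes studied here are such targets or brakes. Phosphodiesterases degrade cAMP, the CREM product ICER represses CRE-driven transcription, SIK1 phosphorylates CRTC2, and RGS2 and GEM restrain G protein and calcium channel signalling. PGC-1 alpha, the product of Ppargc1a, coactivates gluconeogenic genes, and IRS2 couples the insulin receptor to its kinases.

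The full palindromic cAMP response element, TGACGTCA, was found in 3 promoter windows of 2 members, Crem and Ppargc1a. A window runs from 250 bases before to 50 bases after a transcript start in RefSeq, build GRCr8. The table held 13 windows for 6 members, several of them for alternative starts of 1 gene, and had no entry for Gem and Irs2. The full element was present in 1.83% of all 33469 windows, and in a window of 2% of genes. The core site TGACG, searched on both strands (CGTCA on the other) and also contained in the full element, was in 8 of the 13 member windows and in 21.2% of all windows. The windows below are shown because they carry the full element or, for Sik1, a close pair of core sites. Capitals mark these matches, and sequences read 5′ to 3′ on the gene's strand.
Crem, internal start, chr17:58984547-58984846, plus strand: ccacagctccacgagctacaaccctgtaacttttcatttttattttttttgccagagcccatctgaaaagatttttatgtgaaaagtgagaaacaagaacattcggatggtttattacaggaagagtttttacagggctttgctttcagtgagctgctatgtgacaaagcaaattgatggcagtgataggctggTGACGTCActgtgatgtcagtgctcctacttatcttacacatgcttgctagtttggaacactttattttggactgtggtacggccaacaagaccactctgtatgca
Crem, second internal start, chr17:58985240-58985539, plus strand: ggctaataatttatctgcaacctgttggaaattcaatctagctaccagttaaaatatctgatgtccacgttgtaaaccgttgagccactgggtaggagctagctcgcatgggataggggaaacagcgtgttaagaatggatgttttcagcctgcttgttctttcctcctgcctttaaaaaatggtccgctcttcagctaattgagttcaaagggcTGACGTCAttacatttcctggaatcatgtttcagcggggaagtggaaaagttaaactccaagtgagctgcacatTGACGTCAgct
Ppargc1a, chr14:63634058-63634357, plus strand: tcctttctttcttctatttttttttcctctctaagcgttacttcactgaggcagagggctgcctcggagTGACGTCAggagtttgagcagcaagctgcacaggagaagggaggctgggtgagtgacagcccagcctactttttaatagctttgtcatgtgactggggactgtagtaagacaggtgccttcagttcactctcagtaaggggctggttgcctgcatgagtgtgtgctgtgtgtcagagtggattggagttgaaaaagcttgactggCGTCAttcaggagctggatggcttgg
Sik1, chr20:9958597-9958896, minus strand: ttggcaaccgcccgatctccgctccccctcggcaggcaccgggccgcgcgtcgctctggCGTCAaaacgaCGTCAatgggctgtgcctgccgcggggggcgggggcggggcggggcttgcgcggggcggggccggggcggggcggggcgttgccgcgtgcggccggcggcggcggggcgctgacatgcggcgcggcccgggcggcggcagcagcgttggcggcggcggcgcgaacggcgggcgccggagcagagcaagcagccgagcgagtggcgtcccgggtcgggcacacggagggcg

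Crem also has an upstream start, chr17:58933816-58934115 on the plus strand, whose window holds core sites 241 and 6 bases before the start and no full element. In the first internal Crem window the full element begins 56 bases before the start, and in the second internal window there is 1 beginning 35 bases before and another 39 bases after the start. In Ppargc1a it begins 181 bases before the start. Sik1 has core sites beginning 191 and 180 bases before its start and no full element in this window. Rgs2 has a core site 216 bases before its start, Pde4d has core sites in 2 of 5 windows, and neither of the 2 Pde4b windows has these letters. A match describes letters and shows no binding. No window says anything about binding factors in these rats.

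The share of probes well above background ranged over the arrays from 53.4% to 62.3%. The 75th percentile of intensity ranged from 912.5 to 998.3, with no saturated spots. Each log2 signal below is relative to that percentile of its own array, so that 0 is the percentile; signals are not compared between probes. All 10 hepatocyte markers fixed for the check of the tissue, among them albumin, were well above background on all arrays. The arrays shared 1 slide and 1 scan. CO2/O2 replicates 1 to 3 and isoflurane replicate 1 were in slide row 1, and isoflurane replicates 2 and 3 in row 2. With the slide row as a block, a fit whose contrast rests on isoflurane replicate 1, the only isoflurane rat in a row with CO2/O2 rats, Sik1 had a difference of 1.82 (SE 0.34; limma adjusted p = 0.726) and Pde4b 0.41 (SE 0.30), against 0.75 and -0.23 without the block. In the same fit Crem had 0.20 (SE 0.29), Pde4d -0.11 (SE 0.27), Irs2 0.10 (SE 0.18) and Rgs2 -0.15 (SE 0.35), against 0.013, -0.32, 0.20 and -0.15. With 3 rats per group, the number of arrays limits the precision of every value.

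No member passed the test between isoflurane and CO2/O2. Of the 8 genes, 6 could be tested, having a probe well above background in every rat of at least 1 group: Crem, Pde4b, Pde4d, Sik1, Rgs2 and Irs2. Ppargc1a and Gem were too dim. In limma, with Benjamini-Hochberg adjustment over all 34637 probes tested, 0 of the 6 reached an adjusted p of 0.05, the smallest being 0.74, against 0.00866% of all probes. At an unadjusted p under 0.05 there were 0 of 6, against 7.58% of 10609 genes. A difference of at least 2-fold was measured for 0 of 6, against 1.14% of genes. The values of the groups did not overlap for 0 of 6, against 14.2% of genes. Of the 6, 3 had positive differences (isoflurane minus CO2/O2) and 3 negative, with a median of -0.066 log2 units, where the median over all genes was -0.011. The 95% confidence interval lay within 2-fold in either direction for 4 of the 6, namely Crem, Pde4d, Rgs2 and Irs2, against 90.5% of genes. For Sik1 and Pde4b a larger change is within the interval.

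**Figure D1:**
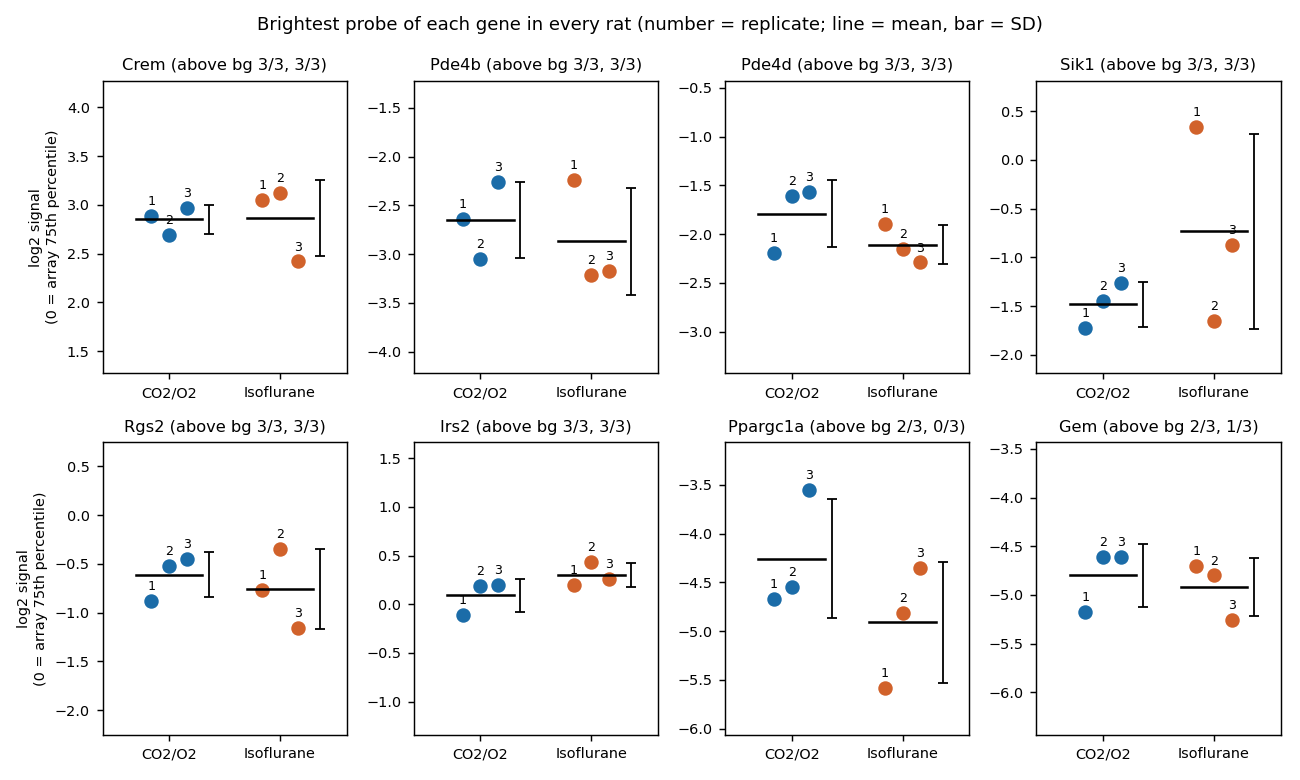
Log2 signal of the brightest probe of each of the 8 genes in each rat, relative to the array's 75th percentile, in panels of equal height. Points are rats numbered by replicate, lines are group means and bars 1 SD (n = 3). The groups overlap in every panel; Sik1 spreads from -1.65 to 0.34 among isoflurane rats, and Ppargc1a and Gem are at the dim end, where few arrays rose above background (counts in the panel titles, CO2/O2 first).

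Among the transcriptional brakes, Sik1, the salt-inducible kinase that holds CRTC2 in the cytoplasm, had the largest difference of the 6 tested genes. In CO2/O2 rats 1 to 3 the log2 signals were -1.72, -1.45 and -1.26, and in isoflurane rats 1 to 3 they were 0.34, -1.65 and -0.87 on isoflurane replicates 1 to 3. Isoflurane replicate 1 was far above every other rat and isoflurane replicate 2 lay within the CO2/O2 range, so the groups overlapped. In intensity, isoflurane replicate 1 read 1165 against 291 and 520 in the other isoflurane rats and 302 to 416 in the CO2/O2 rats. The difference was 0.75 log2 units (SE 0.48, 95% interval -0.41 to 1.91; limma adjusted p = 0.753), or 1.68-fold. It was 0.22 (SE 0.27) without isoflurane replicate 1, and 1.21 (SE 0.37) without isoflurane replicate 2. The SD was 1.00 among isoflurane rats and 0.23 among CO2/O2 rats. The pooled SD, 0.73, exceeded that of 97.4% of genes tested, whose median was 0.15.

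Crem, which encodes activators and the inducible repressor ICER, was covered by the most probes of any member, 7, all well above background on all arrays. Its brightest probe had log2 signals of 2.89, 2.69 and 2.97 after CO2/O2 and 3.05, 3.12 and 2.42 after isoflurane. Isoflurane replicates 1 and 2 were the highest of the 6 rats and isoflurane replicate 3 the lowest. The group means, 2.85 ± 0.15 and 2.86 ± 0.39 (SD, n = 3), gave a difference of 0.013 (SE 0.20, 95% interval -0.48 to 0.51; limma adjusted p = 0.993). Over the 7 probes the difference ran from -0.17 to 0.18, with 4 negative and 3 positive. In all 7 the lowest rat was isoflurane replicate 3, and the probes spanned 0.69 to 0.93 log2 units over the 6 rats. The 7 probes are assigned to 2 accessions, NM_001110860 (5 probes) and NM_017334 (2 probes). Which Crem transcripts each probe detects, ICER included, was not analysed here.

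Ppargc1a, the inducible coactivator of gluconeogenesis, was close to the background of the array. Its only probe was well above background on 2 of 3 CO2/O2 arrays and on 0 of 3 isoflurane arrays. The log2 signals were -4.67, -4.55 and -3.55 after CO2/O2 and -5.58, -4.81 and -4.35 after isoflurane, and the ranges overlapped. CO2/O2 replicate 3 was the highest rat and isoflurane replicate 1 the lowest. The measured means were -4.26 after CO2/O2 and -4.91 after isoflurane. The isoflurane level has only an upper bound, and the measured CO2/O2 mean was 1.19-fold above it. The bound averages the detection limits of the isoflurane arrays, or the probe's own signal where that was higher. The detection limit of an array is the dimmest probe that was well above background there. The CO2/O2 mean includes an array where this probe was not well above background. The bound also leaves out the spread between rats, so 1.19-fold is no minimum. The gene was not tested by the rule on dim probes. With no such rule the difference was -0.66 (SE 0.43; limma unadjusted p = 0.18).

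The phosphodiesterases that degrade cAMP were lower on average after isoflurane at each tested probe, without passing the test. Pde4d had 3 tested probes. The brightest had log2 signals of -2.19, -1.61 and -1.57 after CO2/O2 and -1.90, -2.15 and -2.29 after isoflurane. CO2/O2 replicate 1 sat among the isoflurane rats, while CO2/O2 replicates 2 and 3 were above all others. The difference was -0.32 (SE 0.20, 95% interval -0.80 to 0.15; limma adjusted p = 0.742). It was -0.52 when CO2/O2 rat 1 was omitted and -0.21 when CO2/O2 rat 3 was. The other tested probes had -0.43 (SE 0.20) and -0.54 (SE 0.19). The last, A_64_P051661, assigned to NM_001113328, had a limma unadjusted p of 0.0285 and an adjusted p of 0.62. No other of the 15 tested member probes had an unadjusted p under 0.05. This probe was well above background on 2 of 3 isoflurane arrays. Its CO2/O2 values were -3.69, -3.38 and -3.31, and its isoflurane values were -3.67, -4.32 and -4.02, so the groups overlapped by a narrow margin. CO2/O2 replicate 3 was the highest rat at all 3 tested Pde4d probes.

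A further Pde4d probe, assigned to the transcript NM_001113332, went the other way near background. It was well above background on 0 of 3 CO2/O2 arrays and 2 of 3 isoflurane arrays, and could not be tested. The values were -6.72, -6.16 and -5.40 after CO2/O2 and -4.43, -6.19 and -4.06 after isoflurane, with isoflurane replicates 1 and 3 the highest. The measured means were -6.09 after CO2/O2 and -4.90 after isoflurane, and the groups overlapped. With no filter on dim probes the difference was 1.20 (SE 0.64; limma unadjusted p = 0.112). Its confidence interval, -0.38 to 2.78, included 0. Set against the detection limits of the CO2/O2 arrays, the measured isoflurane mean was 1.1-fold higher. That mean includes an isoflurane array where the probe was not well above background. The ratio also leaves out the spread between rats, so it is no minimum for the difference between the agents.

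Pde4b, the family member also strongly expressed in leukocytes, had 2 tested probes. At the brighter one the log2 signals were -2.64, -3.05 and -2.26 after CO2/O2 and -2.24, -3.21 and -3.17 after isoflurane. CO2/O2 replicate 3 and isoflurane replicate 1 were the highest rats, 1 in each group, and isoflurane replicates 2 and 3 the lowest. The difference was -0.23 (SE 0.32, 95% interval -1.0 to 0.55; limma adjusted p = 0.897). Omitting 1 rat at a time moved it widely: to -0.031 when CO2/O2 rat 3 was omitted, -0.057 and -0.079 for isoflurane rats 2 and 3, -0.43 for CO2/O2 rat 2, and -0.54 for isoflurane rat 1. The other probe gave -0.33 (SE 0.49), with isoflurane replicate 2 at -4.87, where it was not well above background, and isoflurane replicate 1 at -2.85. Both probes thus placed isoflurane replicate 1 highest and isoflurane replicate 2 lowest.

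**Figure D2:**
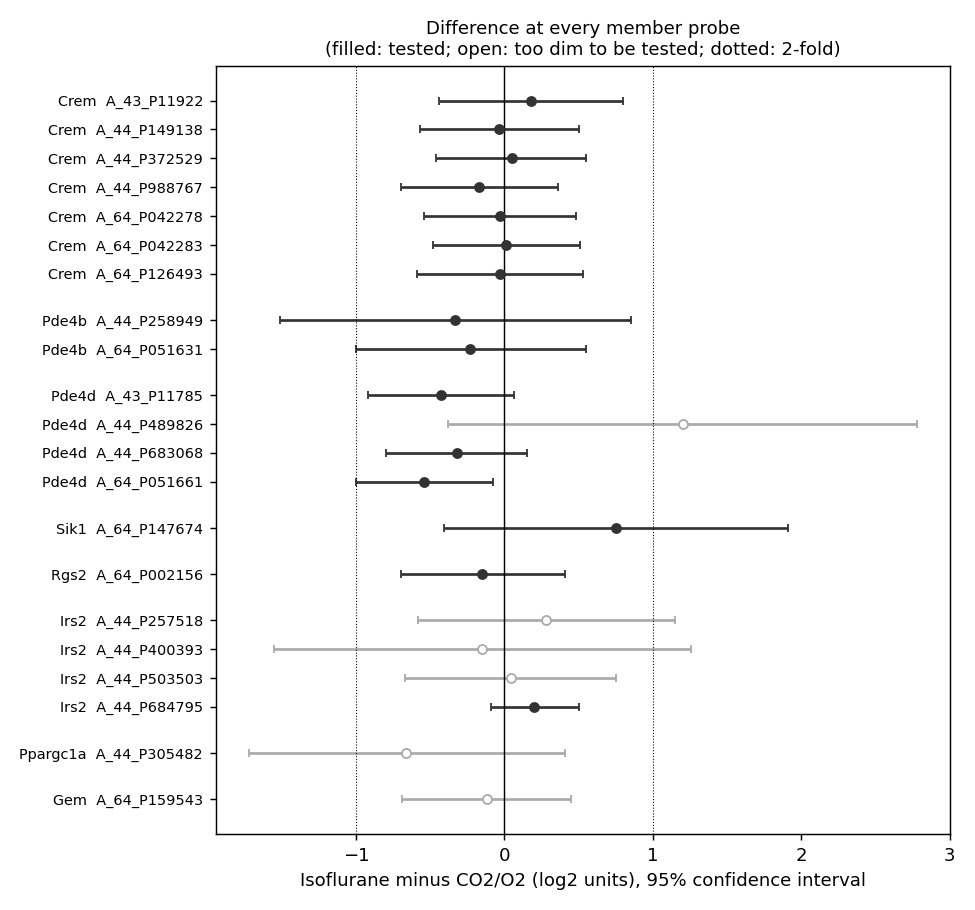
Difference between isoflurane and CO2/O2 in log2 units at each of the 21 member probes, with its 95% confidence interval from limma. Filled points are the 15 tested probes and open points the 6 too dim to be tested, fitted with no filter; dotted lines mark 2-fold. The interval of 1 tested probe, at Pde4d, leaves out 0 (-1.0 to -0.078), and its adjusted p was 0.62.

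Rgs2, which speeds the turn-off of Gq-coupled receptor signals and inhibits adenylyl cyclase, spread more widely among the isoflurane rats (SD 0.41) than among the CO2/O2 rats (SD 0.23). Its log2 signals were -0.88, -0.52 and -0.45 after CO2/O2 and -0.77, -0.35 and -1.16 after isoflurane. The highest and the lowest rat were both in the isoflurane group. The difference was -0.15 (SE 0.23, 95% interval -0.70 to 0.41; limma adjusted p = 0.909), and over single omissions it ran from -0.35 (isoflurane rat 2 omitted) to 0.055 (isoflurane rat 3 omitted), with -0.28 and -0.061 for CO2/O2 rats 1 and 3. Gem, a small GTPase that inhibits voltage-gated calcium channels, was well above background on 2 CO2/O2 arrays and 1 isoflurane array. Its log2 signals were -5.17, -4.61 and -4.61 after CO2/O2 and -4.70, -4.80 and -5.26 after isoflurane. These ranges overlapped almost wholly, and the difference was -0.12 (SE 0.23; limma unadjusted p = 0.621) with no filter on dim probes.

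Irs2, the insulin receptor substrate through which cAMP and insulin signals meet in the hepatocyte, varied least of the tested members. The log2 signals were -0.11, 0.19 and 0.20 after CO2/O2 and 0.20, 0.43 and 0.26 after isoflurane. CO2/O2 replicate 1 was the lowest rat and isoflurane replicate 2 the highest, and the other 4 rats lay between 0.19 and 0.26. The difference was 0.20 (SE 0.12, 95% interval -0.092 to 0.50; limma adjusted p = 0.74). It was 0.10 without CO2/O2 replicate 1. Irs2 had 3 other probes under the same accession. They were well above background on at most 1 of the 6 arrays, could not be tested, and had differences of -0.15, 0.28 and 0.044.

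The tested regulators had no pair whose values passed a test of co-variation across the 6 rats. Among the 15 pairs of the 6 genes, Pearson's r ran from -0.42 to 0.68, with 13 positive and 2 negative. None reached an unadjusted p of 0.05 in an exact two-sided permutation test over the 720 orders of the rats, and the smallest Benjamini-Hochberg adjusted p was 0.964 for r and 0.86 for Spearman's rho. The highest r was that of Crem and Rgs2 (r = 0.68, exact permutation p = 0.131; rho = 0.71, exact permutation p = 0.136). Both were lowest in isoflurane replicate 3 and highest in isoflurane replicate 2. Without the 2 rats farthest from the median of Rgs2, r was -0.30, while without those farthest in Crem it was 0.65. Pde4d and Rgs2 followed (r = 0.61, exact permutation p = 0.204; rho = 0.66, exact permutation p = 0.175). Here r was 0.38 without the 2 rats farthest in Pde4d and 0.98 without those farthest in Rgs2.

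The 2 phosphodiesterase genes had r = 0.47 (exact permutation p = 0.312) and rho = 0.49 (exact permutation p = 0.356), and r was -0.039 without the 2 rats farthest in Pde4b and 0.81 without those farthest in Pde4d. Pde4b and Sik1, both highest in isoflurane replicate 1, had r = 0.49 (exact permutation p = 0.328) and rho = 0.43 (exact permutation p = 0.419). For deviations from the group means, r was 0.79, and over all rats but the 2 farthest in Pde4b it was -0.50, against 0.53 without the 2 farthest in Sik1. The slide rows hold too few rats for r within a row.

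**Figure D3:**
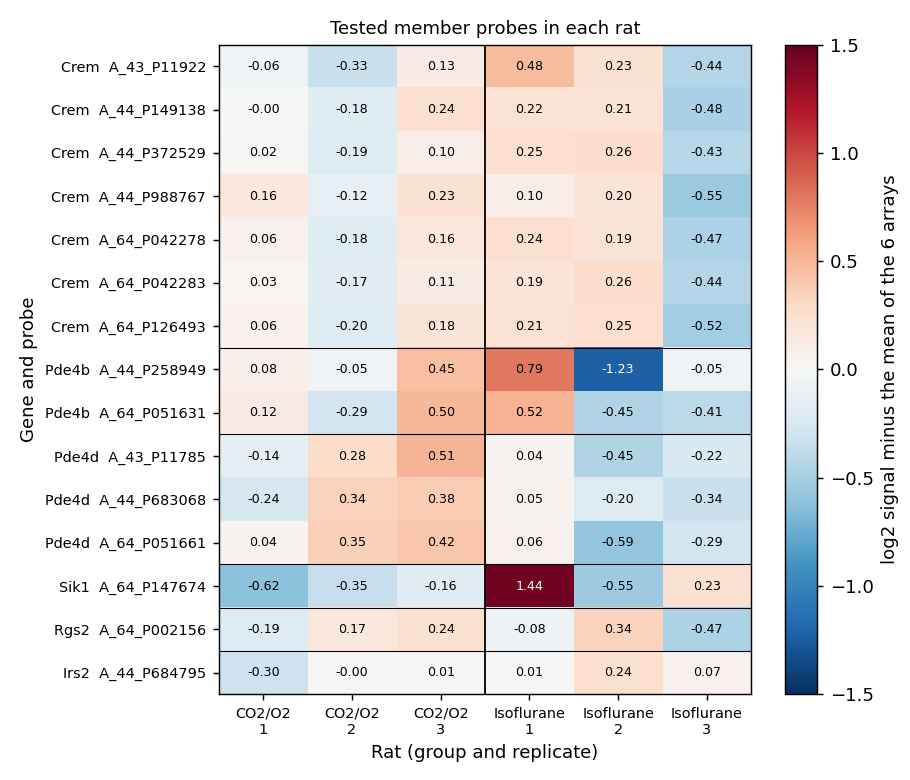
Log2 signal of the 15 tested member probes in each of the 6 rats, as the difference from that probe's mean over the rats (colour and printed value). Probes of 1 gene show alike patterns, as at the 7 Crem probes, which are all lowest in isoflurane replicate 3. The patterns differ from gene to gene, and the strongest single departure upward is Sik1 in isoflurane replicate 1.

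Sik1 was the only member whose brightest probe spanned at least 1 log2 unit over the 6 rats while well above background in all of them. Of the 1009 other genes that met the same conditions, 7 (0.694%) had a Pearson r with Sik1 of at least 0.9 over the 6 rats. The 3 most like it were Senp8 (r = 0.994), a NEDD8-specific protease, Creg1 (r = 0.979), a secreted lysosomal glycoprotein, and RT1-DOb (r = 0.960), an antigen-presentation gene. All 3 were highest in isoflurane replicate 1, where Creg1 read 5.69 against 4.25 to 4.86 in the other rats. With 6 rats, and 1 of them far from the rest, r is given as a description with no p.

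The rest of the pathway was described through 9 lists covering receptors to target genes. Of their 101 genes, 92 were on the array under a matched accession and 79 were tested. In limma 0 of the 79 reached an adjusted p of 0.05. At an unadjusted p under 0.05 there were 7 (8.86%, against 7.58% of all genes), and the groups did not overlap for 11 (13.9%, against 14.2%). Both shares are near those of all genes. Of the 79, 30 had positive and 49 negative differences, where 47.1% of all genes had positive ones. In each list, genes among the 3 with the largest moderated t are named, and any others were chosen after their values were seen.

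No gene of the receptors, Gs or adenylyl cyclases had an unadjusted p under 0.05 in limma. Gcgr, the glucagon receptor, had log2 signals of 5.39 to 5.54 on the CO2/O2 arrays and 5.42 to 5.55 on the isoflurane arrays, a difference of 0.029 (SE 0.086). Of 7 receptors, 3 had positive and 4 negative differences, with Vipr1, a VIP receptor, at -0.14 (SE 0.20) and Adora2b, an adenosine receptor, at 1.22 (SE 0.72). The last spanned -4.54 to -1.69 within the CO2/O2 group alone. Gnas, which encodes the stimulatory alpha subunit, had -0.0039 (SE 0.079). The list of Gs and adenylyl cyclases had 1 positive and 5 negative differences among its 6 tested genes, with a median of -0.14. Adcy5 had -0.17 (SE 0.15), Adcy6 0.19 (SE 0.15) and Adcy7 -0.21 (SE 0.17).

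Genes of protein kinase A gave 4 positive and 5 negative differences among 9 tested, with 2 at an unadjusted p under 0.05. Prkar1b, a regulatory subunit, had 0.35 (SE 0.10; limma adjusted p = 0.577) and groups that did not overlap. Pkib, an inhibitor of the kinase, had 1.32 (SE 0.50; limma adjusted p = 0.648), with -1.73, -2.32 and -0.88 after CO2/O2 and -1.19, 0.35 and -0.14 after isoflurane, which overlap. Prkar1a had 0.14 (SE 0.10). The other cAMP phosphodiesterases had 0 positive and 5 negative differences, with a median of -0.16, as at Pde3b (-0.22, SE 0.15), Pde7a (-0.15, SE 0.17) and Pde7b (-0.31, SE 0.33). None of these 5 reached an unadjusted p of 0.05. Pde4a, of the same PDE4 family as the members, had -0.025 (SE 0.12).

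Among CREB family genes and coactivators, 3 of 6 had positive and 3 negative differences, with a median of -0.011. Crtc2, the coactivator that SIK1 inhibits, had 0.17 (SE 0.074; limma adjusted p = 0.673); it lay at 1.26 to 1.30 after CO2/O2 and at 1.42 to 1.49 after isoflurane, without overlap. Atf1 had -0.17 (SE 0.091) and Crtc1 0.18 (SE 0.18). Sik2, Sik3, Crtc3 and Ep300 had no matched probe.

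Of 17 tested target genes of CREB and glucagon, 5 had positive and 12 negative differences, with a median of -0.084, and 1, Junb, had an unadjusted p under 0.05 (0.77, SE 0.27; limma adjusted p = 0.615). Cebpb had -0.43 (SE 0.20) and Nr4a2 -0.32 (SE 0.23). Pck1, the gluconeogenic enzyme, had -0.084 (SE 0.17). G6pc1, the catalytic subunit of glucose-6-phosphatase, had log2 signals of 5.88, 7.13 and 7.11 after CO2/O2 and 7.07, 5.62 and 7.18 after isoflurane. CO2/O2 replicate 1 and isoflurane replicate 2 were thus the low rats, 1 in each group. The same rats were lowest for Tat, a tyrosine aminotransferase (2.65 and 2.15, the others 3.23 to 4.06), and for Igfbp1, an insulin-repressed binding protein (1.54 and 1.39, the others 2.83 to 5.23). These targets were picked after their values were seen. Pck1 and Klf15 were also lowest in these 2 rats, while Dusp1, Junb, Sds and others of the list were not. Sik1 was lowest in these 2 rats by a narrow margin (-1.72 and -1.65, the others -1.45 to 0.34). The other tested members were not.

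Around Irs2, insulin signalling genes gave 5 positive and 6 negative differences among 11 tested, with a median of -0.058. Trib1, a pseudokinase that regulates hepatic lipid genes, had 0.95 (SE 0.25; limma adjusted p = 0.569), with -1.97 to -1.43 after CO2/O2 and -1.30 to -0.47 after isoflurane, without overlap. Akt1 had -0.17 (SE 0.10) and Akt2 -0.23 (SE 0.11), and Irs1, the close relative of Irs2, had 0.20 (SE 0.14). Partners of Ppargc1a gave 7 positive and 1 negative difference among 8, with a median of 0.13. Ppara, the nuclear receptor of fatty acid oxidation, had 0.63 (SE 0.20; limma adjusted p = 0.597) and 0.66 at its other probe, and its groups did not overlap. Hnf4a had 0.38 (SE 0.18) and Pprc1, of the PGC-1 family, -0.34 (SE 0.17). Ppargc1b, a relative of Ppargc1a, had 0.092 (SE 0.23).

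**Figure D4:**
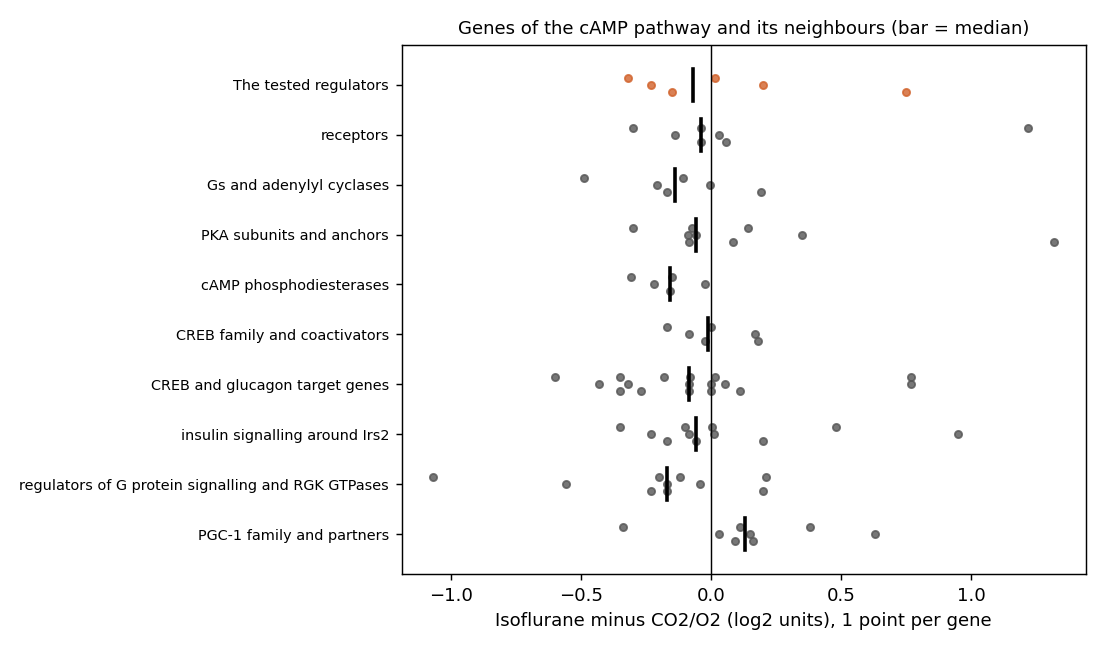
Differences between isoflurane and CO2/O2 in log2 units for the 6 tested regulators (top row) and for the 79 tested genes of the 9 lists, 1 point per gene at its brightest tested probe, with bars at the medians. List medians lie between -0.17 and 0.13, and the points farthest from 0 are Pkib at 1.32, Adora2b at 1.22 and Rgs1 at -1.07, none of which passed the test.

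Relatives of Rgs2 and Gem gave 2 positive and 8 negative differences among 10 tested, with a median of -0.17. Rgs1, of lymphocytes and macrophages, had log2 signals of -2.51, -2.24 and -2.24 after CO2/O2 and -3.56, -3.68 and -2.97 after isoflurane. The groups did not overlap, and the difference was -1.07 (SE 0.20; limma adjusted p = 0.486). Rgs18, of platelets and myeloid cells, had -0.56 (SE 0.16; limma adjusted p = 0.569), and Rem2, of Gem's own GTPase family, -0.20 (SE 0.093). Markers of blood and resident immune cells had differences of the same sign. Negative signs were not particular to them. Of tested bile duct markers 4 of 5 were negative (median -0.33), and of sinusoidal endothelial markers 5 of 6 (median -0.074). For hepatocyte markers it was 4 of 10 and for stellate markers 3 of 9. Of 11 Kupffer cell and macrophage markers 10 were tested and all 10 had negative differences, with a median of -0.35. Their summed signal, in multiples of the array's 75th percentile, was 199 to 245 on the CO2/O2 arrays and 160 to 189 on the isoflurane arrays. Of 12 lymphocyte markers 8 were tested, all 8 with negative differences (median -0.37); the summed signal of the 10 on the array was 3.81 to 4.36 and 3.36 to 3.75. Of 7 neutrophil markers 2 were tested, both with negative differences, and Cxcr2 and Ngp were not well above background on any array; the summed signal was 1.14 to 1.55 and 0.652 to 1.63. In limma no marker of any list reached an adjusted p of 0.05. At an unadjusted p under 0.05 there were 6 of 10 Kupffer cell, 3 of 8 lymphocyte and 1 of 5 bile duct markers. The neutrophil, endothelial, hepatocyte and stellate lists had 0, and the share of all genes was 7.58%. Groups did not overlap for 6 Kupffer cell and 3 lymphocyte markers and 1 each of bile duct, endothelial and hepatocyte, against 14.2% of genes. The part of immune cells in the values of Rgs1, Rgs18, Rgs2 and Pde4b was not tested. In whole liver, fewer cells of a type and less RNA per cell cannot be told apart. With each gene centred over the rats, the mean of the Kupffer cell list was highest in CO2/O2 replicate 1 (0.36) and lowest in isoflurane replicate 3 (-0.22). The lymphocyte mean was likewise highest in CO2/O2 replicate 1 (0.29) and lowest in isoflurane replicate 3 (-0.61). The neutrophil mean, of 2 genes, was highest in isoflurane replicate 1 (0.51) and lowest in isoflurane replicate 3 (-0.88). At its brighter probe Pde4b was also highest in isoflurane replicate 1 (-2.24), just above CO2/O2 replicate 3 (-2.26). Its lowest rats were isoflurane replicates 2 (-3.21) and 3 (-3.17), nearly tied. Rgs2 was also lowest in isoflurane replicate 3 but highest in isoflurane replicate 2, where the neutrophil mean was -0.37.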

How the data were processed

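Liver RNA of 6 rats, 0.2 ug each, was labelled with Cy3 and hybridised to 1-colour arrays, per the labels' protocols. The deposited scanner files hold intensity values made with Agilent Feature Extraction 10.7 (per the submitters' processing notes), background-corrected per the file headers and not scaled between arrays. The deposited value table of the series holds a ratio, found here to be the same intensity divided by 1 number per array close to its 75th percentile.

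From the log2 intensity of each probe, the log2 of the 75th percentile over its array's non-control probes was subtracted. The 177 outlier-marked spots were left out, none at a member probe. A probe was tested where well above background on all 3 arrays of a group. The model was fitted with lmFit and eBayes (limma 3.58.1, R 4.3.3), with p-values adjusted over all 34637 probes at 0.05; the fit was tested on simulated data. Counts of genes use the tested probe with the highest mean. Accessions were matched, without version, to RefSeq genes (GRCr8, for names): 27460 of 61657 probes matched 1 gene. Correlations used numpy 2.4.6 under Python 3.11.15.

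Members and lists were chosen with earlier results of these data known. Members were all named; other genes followed the rule of the 3 largest moderated t per list (1 such gene is not reported here), and genes like a member needed a range of 1 log2 unit. Alternatives were other background correction, normalization, filters, eBayes settings, blocks and each array left out. Because the labels name separate rats but not cages or batches, p-values measure the spread between these rats.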

Additional observations from a re-analysis of the deposited data

How the results depend on the processing

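The count of members past the threshold, 0, was 0 in all 17 alternatives, with the smallest adjusted p of a member between 0.503 and 0.975. The median difference, -0.066, ran from -0.13 to 0.15. It was above 0 with the slide row block (0.15) and without CO2/O2 replicate 3 (0.022) or isoflurane replicate 3 (0.14), so its sign was not stable. The median of the members had an SD of 0.23 over single arrays. Pde4d, Sik1 and Irs2 kept their sign in all 17. Several of these could not test the sign. The other filters, the outlier spots, the eBayes settings, the replicate block and the deposited value table left each difference as it was. Crem, at 0.013, was -0.022 with normexp, -0.046 with median centring, -0.0037 as the mean of its probes, and -0.12 to 0.23 over fits omitting 1 array. Median centring moved the median of all genes to -0.07. Rgs2 lay between -0.35 and 0.055 when single arrays were omitted. In the fit with a slide row block, whose only contrast within a row uses isoflurane replicate 1, assumed to vary like the rest, Pde4b was 0.41, Sik1 1.82, Pde4d -0.11 and Irs2 0.10. Over the same omissions Sik1 lay between 0.22 and 1.21, Pde4b between -0.54 and -0.031, Pde4d between -0.52 and -0.21, and Irs2 between 0.10 and 0.26. The correlation of same-numbered rats' deviations was 0.114, 0.0211 and 0.06, and not every rat correlated best with its own number. Such small values show no clear pairing by number but cannot exclude one. With the replicate block no member passed (smallest adjusted p = 0.672) and probes past the threshold went from 3 to 0. Pairs of members past the threshold were 0 with quantile normalization too. Slide and scan date were the same for all arrays, so those blocks were not run. Depth of signal over background limits Ppargc1a, Gem, and single probes of Pde4d and Irs2.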
